A study of Rattus norvegicus with 24 samples.

Results

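The genes described here are those of the interferon and JAK-STAT system on a custom rat array: interferons and their receptors, Janus kinases, STAT and interferon regulatory factors, SOCS feedback inhibitors and genes named for their induction by interferon. They were chosen by name, as every non-control probe whose gene name matched a fixed pattern for these families and that the study did not list for the MHC or the natural killer gene complex. This gave 58 of the 7263 genes on the array and 65 of its 8453 probes, and 52 of the 58 genes were represented by 1 probe. The pattern itself uses names and no measured value, but it was set with earlier results of these data known. It names *Plscr1* singly, a gene that the study lists among its most strongly regulated. The size of the *Plscr1* change and its place in the counts below are therefore no separate evidence about the set.

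Interferons bind receptor pairs at the cell surface, and the Janus kinases attached to these receptors phosphorylate STAT proteins, which then enter the nucleus. Complexes of STAT proteins, alone or with an interferon regulatory factor, bind short elements in the promoters of induced genes, among them antiviral effectors, antigen-processing enzymes and the SOCS proteins, which act back on the kinases. In skin attacked by donor lymphocytes, interferon gamma from T and NK cells is a known part of the inflammatory response.

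Skin explants of 15-week-old male BN rats were cultured for 3 days with lymphocytes that had first spent 7 days in mixed culture with irradiated BN splenocytes. The lymphocytes came from PVG rats, which differ from BN at major and minor histocompatibility antigens, in the allogeneic assays, and from BN rats in the syngeneic controls. All skin and all stimulator cells were thus BN, and the added lymphocytes were the only difference in strain. RNA of 12 allogeneic and 12 syngeneic explants was hybridized pairwise to 24 arrays, with each pair on 2 arrays of opposite dye, so that the replicate is the pair, called here by its rat (n = 12). The RNA was that of the whole explant together with any lymphocytes it held, and a change in the number of cells of a type cannot be told apart from a change in RNA per cell.

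Values are log2-fold changes of the allogeneic over the syngeneic sample as the dye labels assign them. A negative value is a signal that was weaker on the allogeneic-labeled side. This direction is opposite to that in the study's tables, so that with the sign turned the negative values below read as up-regulation. Only the direction is compared in this way, as the study's tables also give larger changes for *Plscr1*, *Fcgr3a* and *Trem2*. By quantitative real-time PCR on some of the same sample pairs, most genes that the study tested went the way of its tables. Among them were *Aif1*, *Ubd* and *Psmb8*, which are negative below and were reported there as up-regulated in allogeneic explants. A gene is said to be called when its p-value, adjusted by the Benjamini-Hochberg method over all 7263 genes in limma, was under 0.05. Between 74.8% and 99.9% of the probe spots were well above background in each channel. Rat 8 stood apart from the others: over all genes its log2-fold changes had an SD of 0.703, against 0.199 to 0.355 in the other 11 rats, and they correlated with the mean of the other rats at r = 0.214, against 0.48 to 0.81. Its 2 arrays correlated with each other at r = 0.944, the highest of the 12 pairs, whereas those of rat 10 had the lowest value (r = 0.133). Counts of called genes are therefore also given without rat 8.

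Of the 58 genes, 13 were called (22.4%), where 16.3% of all genes on the array were. Signal was lower in the allogeneic-labeled sample for 10 of them, against a background of 7.6% of all genes, and higher for 3, against 8.66%. The median log2-fold change of the 58 genes was -0.05, and that of all genes was 0.01. Of the 58 genes, 9 were lower in all 12 rats, which 3.24% of all genes were, and 3 were higher in all 12 rats, which 2.63% were. Without rat 8, 17 of the 58 genes were called, 12 lower and 5 higher, where 24.1% of all genes were called (11.4% lower and 12.7% higher). All 13 genes had the same sign on each of the 3 array slides, which held 4 rats each. The tested mean is made up of these slide means, so that this is no separate check.

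**Figure D1:**
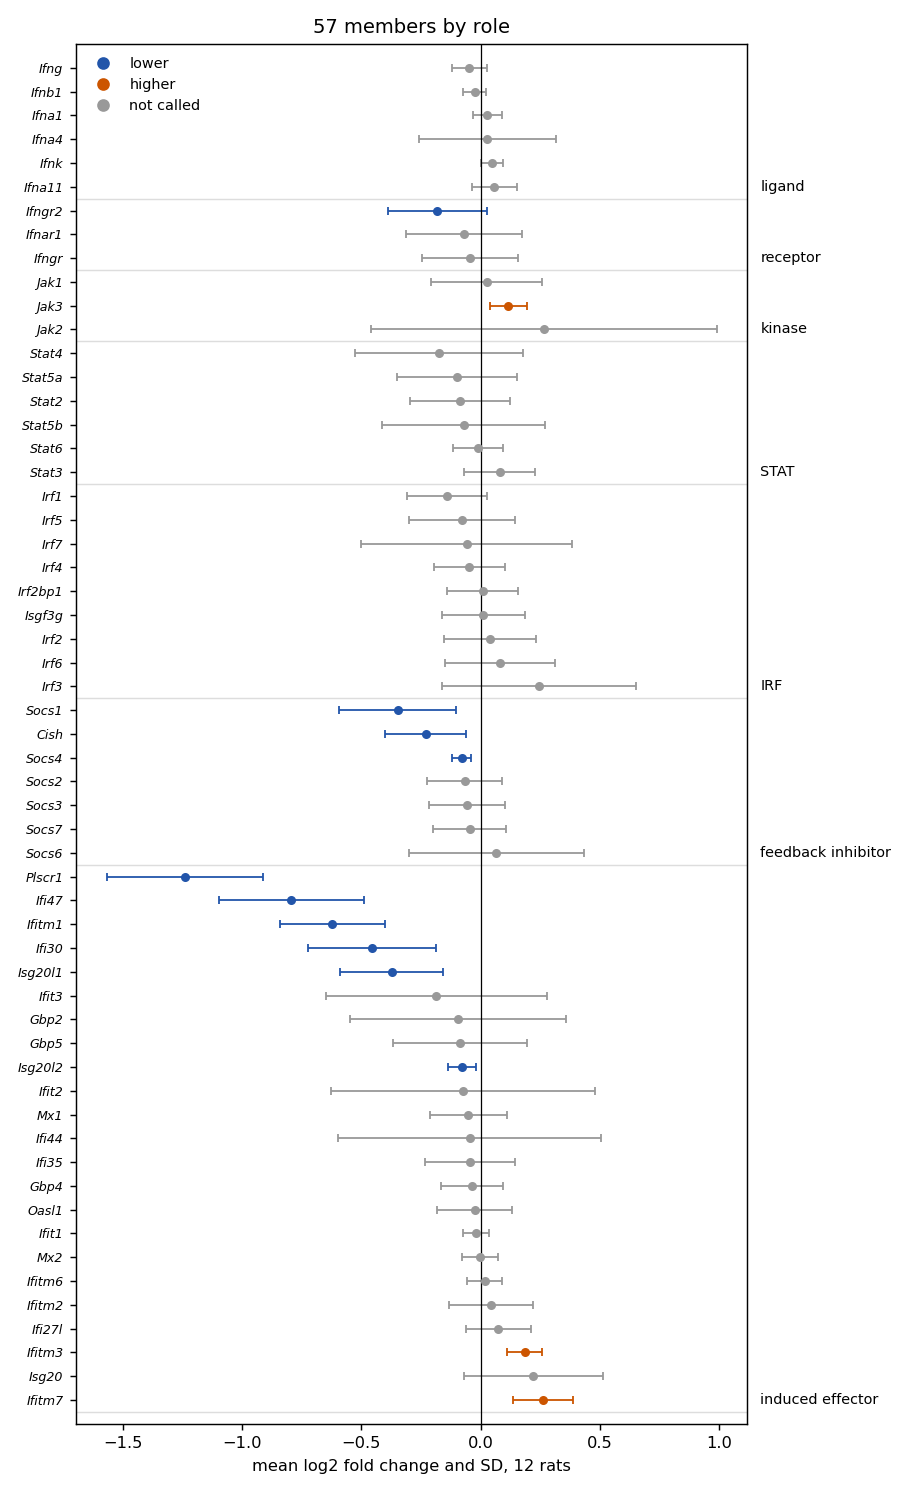
Mean log2-fold change (x axis, allogeneic-labeled over syngeneic sample) of 57 of the 58 genes, grouped by role. Points are means and bars are SDs over 12 rats, blue and orange points are called lower and higher, and grey points are not called. The 5 lowest points are all in the effector group, where *Isg20l1* stands by its name, and the ligands lie close to 0.

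None of the 6 interferon genes was called (limma), and 1 of them, *Ifnk*, had an unadjusted p under 0.05. The interferon alpha genes are near-identical copies, and a probe may read more than 1 of them. With the offset of 50 added to each intensity, the log2-fold change ranged from -0.05 for *Ifng*, the type II interferon, to 0.06 for *Ifna11*. *Ifng* passed the scanner software's background test on 2 of 24 allogeneic and 4 of 24 syngeneic channels, and *Ifnk*, a keratinocyte interferon, on 2 and 1. *Ifna1* passed it on 7 and 6. At such signals the ratio depends on the background correction: *Ifng* was at -0.37 with the processed signals of the scanner software and at -0.24 in the authors' table, not called in either (adjusted p = 0.089 and 0.11, limma). *Ifnk* was at 0.05 with the offset of 50 (adjusted p = 0.0614, limma), and it was called higher with processed signals (0.42, adjusted p = 0.0128), in the authors' table (0.27, adjusted p = 0.0286), with an offset of 10 (0.12, adjusted p = 0.0285), without background correction (0.05, adjusted p = 0.039) and in the exact signed-rank test (adjusted p = 0.0322). *Ifnb1*, the fibroblast interferon, was detected on 24 and 23 arrays, with a log2-fold change of -0.03 ± 0.05 (SD).

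Among the receptor chains, *Ifngr2*, the signaling chain of the interferon gamma receptor, was called. Its log2-fold change ranged from -0.55 to 0.08 over the rats with a median of -0.16, and it was lower in 9 of 12 rats (mean -0.18 ± 0.21 SD, adjusted p = 0.0455, limma). This call was narrow. It was lost when any one of rats 1, 2, 5, 7, 8, 9, 10 and 12 was left out (adjusted p = 0.0549 to 0.0936), and the mean was -0.01 where Cy5 marked the allogeneic sample and -0.35 where Cy3 did. *Ifngr*, the ligand-binding chain of the same receptor, was at -0.05 ± 0.20 (SD) and *Ifnar1*, a chain of the type I interferon receptor, at -0.07 ± 0.24 (SD), and neither was called. Without rat 8, *Ifnar1* was called at -0.13 (adjusted p = 0.0263, limma), yet its means in the dye orientations had opposite signs, -0.43 with Cy5 and 0.29 with Cy3 on the allogeneic side.

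Of the kinases, *Jak3*, which pairs with the common gamma chain of lymphocyte cytokine receptors, was higher in 11 of 12 rats. Its values ran from -0.01 to 0.30 with a median of 0.12 (mean 0.12 ± 0.08 SD, adjusted p = 0.00498, limma). The rise was small, and where Cy3 marked the allogeneic sample it was 0.04 and not called (adjusted p = 0.218, limma). *Jak2*, the kinase of the interferon gamma receptor, had the widest spread of the 58 genes, from -0.36 to 2.47 with a median of 0.08, and the value of 2.47 was that of rat 8. *Jak1*, shared by type I and type II receptors, was at 0.03 ± 0.23 (SD).

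None of the 6 STAT genes described here, *Stat2*, *Stat3*, *Stat4*, *Stat5a*, *Stat5b* and *Stat6*, was called in limma or in the exact signed-rank test, and none had an unadjusted p under 0.05. *Stat4*, which acts downstream of interleukin 12 in T and NK cells, was at -0.18 ± 0.35 (SD), with a mean of -0.53 on the third slide against 0.03 and -0.03 on the others. The other 5 lay between -0.10 and 0.08. *Stat5a* was likewise lowest on the third slide, with a mean of -0.35 there against 0.09 and -0.03 on the others.

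The 9 genes of the interferon regulatory factor group were not called either, 2 had an unadjusted p under 0.05, and the exact signed-rank test called 1. *Irf1*, itself induced by interferon gamma, came nearest, at -0.14 ± 0.17 (SD) with lower values in 10 of 12 rats (adjusted p = 0.0554, limma). *Irf3*, which drives interferon transcription after sensing of nucleic acids, was higher in all 12 rats but unevenly so. Its lowest value was 0.03, its median 0.10 and its highest, in rat 8, 1.50 (mean 0.24 ± 0.41 SD, adjusted p = 0.164, limma). Without rat 8 it was called at 0.13 ± 0.10 (SD, adjusted p = 0.0063, limma). *Irf7*, the amplifier of type I interferon production, was lower in 6 rats and higher in 6, from -1.03 in rat 8 to 0.43. *Isgf3g*, today's *Irf9*, a DNA-binding partner of STAT proteins, was at 0.01 ± 0.17 (SD).

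Of the 7 feedback inhibitors, 3 were called (42.9%), where 16.3% of all genes on the array were, and all 3 were lower in every rat. *Socs1*, which blocks the Janus kinases at the interferon gamma receptor, had normalized log2 intensities of 8.07 to 8.73 in the syngeneic sample (median 8.27) and of 7.64 to 8.24 in the allogeneic-labeled sample (median 8.04). These ranges overlap, but within each rat the allogeneic-labeled sample was the lower one. The log2-fold change of *Socs1* ran from -0.69 in rat 8 to -0.03 in rat 6 with a median of -0.31 (mean -0.35 ± 0.24 SD, adjusted p = 0.00375, limma), and without rat 8 it was -0.32. *Cish*, the inhibitor induced by STAT5, ran from -0.48 to -0.000185 with a median of -0.18 (mean -0.23 ± 0.17 SD, adjusted p = 0.00528, limma), so that rat 3 showed no measurable difference. *Socs4* was called at only -0.08 ± 0.04 (SD, adjusted p = 0.00248, limma), from -0.18 to -0.05, a small shift with a small spread that was not called with the processed signals of the scanner software or with median centring. *Socs3*, a target of STAT3, was at -0.06 ± 0.16 (SD) and *Socs2* at -0.07 ± 0.16 (SD), neither called, and the 2 probes of *Socs3* gave -0.07 and -0.05.

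The promoters of *Cish* and *Socs1* are shown because both genes were called and both windows hold matches to STAT elements. The windows are RefSeq sequences of build GRCr8 from 250 bases before to 50 bases after the start of the gene, 5′ to 3′ on the gene's strand. That of *Cish* is chr8:116850719-116851018 and that of *Socs1* chr10:5389324-5389623, both on the plus strand. Capitals mark TTCNNNGAA, the letters of a gamma-activated site, and GAAANNGAAA, those of an interferon-stimulated response element, searched on both strands.
Cish: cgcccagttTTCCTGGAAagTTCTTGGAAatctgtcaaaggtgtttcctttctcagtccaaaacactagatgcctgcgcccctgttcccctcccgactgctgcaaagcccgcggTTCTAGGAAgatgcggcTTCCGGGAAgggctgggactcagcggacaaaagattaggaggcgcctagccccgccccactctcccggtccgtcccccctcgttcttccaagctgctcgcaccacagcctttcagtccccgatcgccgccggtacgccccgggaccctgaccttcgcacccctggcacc
Socs1: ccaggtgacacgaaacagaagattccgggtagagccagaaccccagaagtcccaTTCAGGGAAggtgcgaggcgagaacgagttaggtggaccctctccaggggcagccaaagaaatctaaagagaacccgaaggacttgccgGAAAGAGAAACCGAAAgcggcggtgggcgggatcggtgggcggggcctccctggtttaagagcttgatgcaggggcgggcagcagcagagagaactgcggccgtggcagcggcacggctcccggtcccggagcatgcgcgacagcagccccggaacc
*Cish* held 4 matches to the gamma-activated site, starting 241, 230, 136 and 119 bases before the gene's start. *Socs1* held 1, and 2 overlapping matches to the response element starting 107 and 101 bases before its start. Of the 58 genes, 57 were matched to a RefSeq gene and 45 of these had a promoter window. The response element was found in 14 of the 45 (31.1%), where 3.92% of all 33469 windows held it, and the gamma-activated site in 9 (20%), where 8.87% of all windows held it. These are matches of letters, and no binding was measured.

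The induced effectors held the largest differences: 8 of 23 were called (34.8%, against 16.3% of all genes), 6 lower and 2 higher. These 8 include *Plscr1*, which the pattern names singly, and *Isg20l1* and *Isg20l2*, which stand here by name. *Plscr1*, an interferon-induced phospholipid scramblase, differed most. Its normalized log2 intensity was 10.42 to 13.61 in the syngeneic sample (median 12.83) and 9.01 to 11.95 in the allogeneic-labeled sample (median 11.72). Both low ends were those of rat 10, which had the lowest level in both channels for 22 of the 58 genes. For others rat 10 had the highest level in both channels, among them *Gbp4* (9.03 and 9.05) and *Stat4* (10.18 and 10.1). Its 2 arrays also correlated least with each other (r = 0.133), so that its levels are the least certain. In the other 11 rats *Plscr1* was at 12.31 to 13.61 and 11.25 to 11.95, ranges that do not overlap. Its log2-fold change ran from -2.06 in rat 9 to -0.84 in rat 3 with a median of -1.16 (mean -1.24 ± 0.33 SD, adjusted p = 6.7e-06, limma), which is a signal ratio of 0.424. *Plscr1* was the only one of the 13 called genes beyond a log2-fold change of 1 in size with the offset of 50, and *Ifi47* passed it as well with processed signals (-1.07) and in the authors' table (-1.03). The means were -1.22 and -1.26 in the dye orientations and -1.11, -1.18 and -1.42 on the slides, and without rat 8 the mean was -1.25. Its probe lies at chr8:97245925-97245984 of build rn3.

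Next came *Ifi47*, an interferon-inducible GTPase. Its normalized log2 intensities ran from 7.66 to 9.00 in the syngeneic sample and from 7.28 to 8.01 in the allogeneic-labeled sample, and its log2-fold change from -1.32 to -0.37 with a median of -0.82 (mean -0.79 ± 0.30 SD, adjusted p = 0.000102, limma). *Ifi30*, the lysosomal thiol reductase that prepares antigens for MHC class II, ran from -0.94 to -0.02 with a median of -0.46 (mean -0.46 ± 0.27 SD, adjusted p = 0.00124, limma). Both were lower in every rat.

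The exonuclease genes are in the set by name. *Isg20l1* and *Isg20l2* are named for their likeness to *Isg20* rather than for induction by interferon. *Isg20l1* was lower in 12 of 12 rats, from -0.74 to -0.13 with a median of -0.29 (mean -0.37 ± 0.22 SD, adjusted p = 0.00113, limma), and *Isg20l2* by far less (mean -0.08 ± 0.06 SD, adjusted p = 0.011, limma). *Isg20l2* was not called with processed signals, with median centring or on the Cy3-allogeneic arrays alone. *Isg20* itself, whose probe at chr1:134715902-134715961 (rn3) neighbors that of *Isg20l1* at chr1:134703527-134703586, was at 0.22 ± 0.29 (SD), higher in 11 of 12 rats and not called (adjusted p = 0.081, limma).

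**Figure D2:**
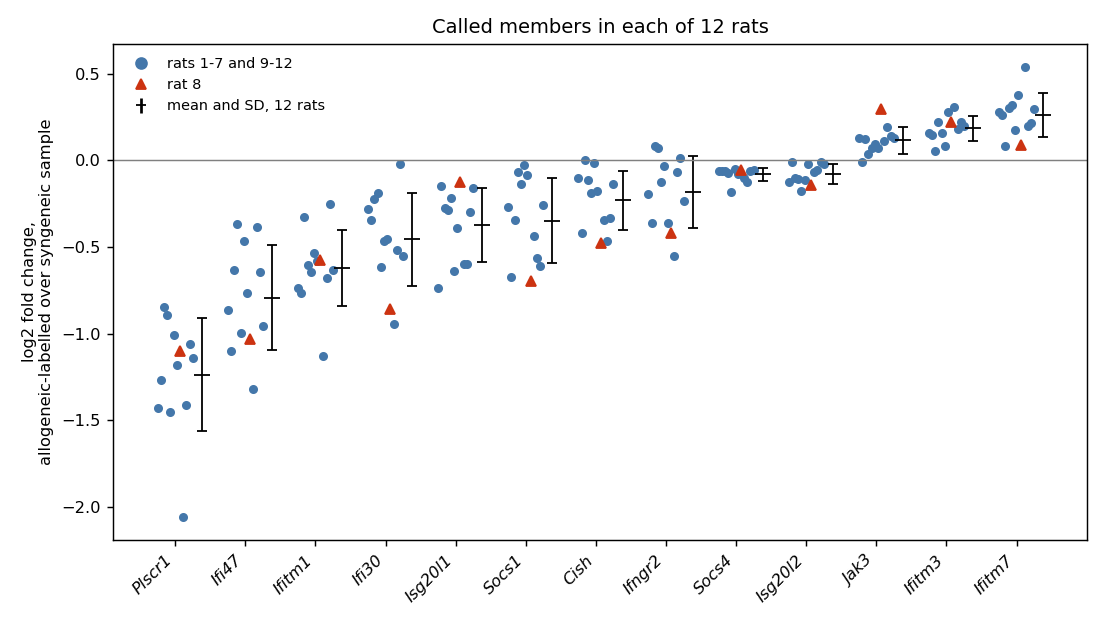
Log2-fold change (y axis, allogeneic-labeled over syngeneic sample) of the 13 called genes in each rat, with the mean and SD over 12 rats as black bars. Circles are 11 rats and the red triangle is rat 8, which lies within the range of the other rats for 9 of the 13 genes. *Plscr1* stays below -0.84 in every rat.

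The *Ifitm* family, small membrane proteins that restrict virus entry, moved in both directions. *Ifitm1* was lower in all 12 rats, from -1.13 to -0.25 with a median of -0.62 (mean -0.62 ± 0.22 SD, adjusted p = 6.42e-05, limma), at a normalized log2 intensity of 12.3 in the syngeneic and 11.7 in the allogeneic-labeled sample. *Ifitm3* was higher in all 12 rats, from 0.05 to 0.31 with a median of 0.19 (mean 0.18 ± 0.07 SD, adjusted p = 0.000193, limma). *Ifitm7* was higher as well, from 0.08 to 0.54 with a median of 0.27 (mean 0.26 ± 0.13 SD, adjusted p = 0.000434, limma). *Ifitm1*, *Ifitm2*, *Ifitm3* and *Ifitm6* are neighbors, with probes between chr1:201284489-201284548 and chr1:201354912-201354971 of build rn3, whereas the probe of *Ifitm7* lies on chromosome 11. The 2 probes of *Ifitm3* disagreed: 1 gave 0.33 and was called (adjusted p = 0.000179, limma), the other 0.04 (adjusted p = 0.254, limma). *Ifitm2* was at 0.04 ± 0.18 (SD) and not called. For *Ifitm6*, one of the names that mark this gene set, 12 rats gave 0.02 ± 0.07 (SD), from -0.07 to 0.16, but in each channel only 2 of 24 arrays gave a signal well above background, so that it neither bears out nor goes against the name. No 2 *Ifitm* probes shared a run of more than 9 bases. However, the called *Ifitm3* probe and the *Ifitm7* probe matched at 22 of 25 aligned bases, where the other pairs matched at 19 to 24 of 51 to 60. The higher values of *Ifitm3* and *Ifitm7* may therefore not be independent readings. Binding of a probe to the transcript of another family member was not tested.

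The promoters of *Ifi47*, *Ifitm3* and *Ifitm7* are shown because the first was lower and the others were higher. They are RefSeq windows of GRCr8 as above, at chr10:33798494-33798793 (plus strand), chr1:205541709-205542008 (minus strand) and chr11:46606564-46606863 (plus strand), with the same motifs in capitals.
Ifi47: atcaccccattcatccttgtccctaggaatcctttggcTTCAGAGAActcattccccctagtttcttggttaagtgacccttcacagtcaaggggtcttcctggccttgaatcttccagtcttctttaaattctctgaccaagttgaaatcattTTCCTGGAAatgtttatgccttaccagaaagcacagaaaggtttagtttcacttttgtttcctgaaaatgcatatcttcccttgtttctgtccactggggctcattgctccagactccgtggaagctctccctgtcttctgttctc
Ifitm3: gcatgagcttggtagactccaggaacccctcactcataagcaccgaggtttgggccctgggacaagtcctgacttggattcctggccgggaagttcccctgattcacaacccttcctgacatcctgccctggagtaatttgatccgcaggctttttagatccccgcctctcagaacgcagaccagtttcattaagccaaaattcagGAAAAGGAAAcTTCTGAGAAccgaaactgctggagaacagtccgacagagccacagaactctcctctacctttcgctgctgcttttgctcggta
Ifitm7: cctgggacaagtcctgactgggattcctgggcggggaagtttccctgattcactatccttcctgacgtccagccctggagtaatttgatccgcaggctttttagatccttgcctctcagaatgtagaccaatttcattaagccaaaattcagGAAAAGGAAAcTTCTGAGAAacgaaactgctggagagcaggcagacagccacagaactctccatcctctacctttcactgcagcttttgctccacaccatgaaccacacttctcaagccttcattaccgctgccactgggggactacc
*Ifi47* held 2 matches to the gamma-activated site. *Ifitm3* and *Ifitm7* each held 1 match to either motif, side by side, inside a run of 41 bases that is the same in both windows. Among the 10 called genes with a window, 3 held the response element, 5 the gamma-activated site and 5 neither, and *Plscr1* was one of those with neither.

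Of the 23 genes in the effector group 15 were not called, those that follow among them. *Mx1* was above background on 10 arrays in the allogeneic and 12 in the syngeneic channel, and *Mx2* on 1 in each, at log2-fold changes of -0.05 and -0.002. *Oasl1*, an oligoadenylate synthetase-like gene, was at -0.02 ± 0.16 (SD), and *Gbp2*, *Gbp4* and *Gbp5*, guanylate-binding proteins induced by interferon gamma, lay between -0.09 and -0.04. Without rat 8, which was at 0.95, the mean of *Gbp2* was -0.19 (adjusted p = 0.153, limma), and *Gbp5* was at -0.27 with processed signals (adjusted p = 0.192, limma). *Gbp5* had 2 probes: 1 was above background on 8 arrays in each channel and gave -0.04, and the other gave -0.13. Of the 3 probes of *Ifit1*, only 1 was above background on all 24 arrays, and it gave -0.05 (adjusted p = 0.438, limma).

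Rat 8 decided the value of several uncalled genes. In 10 of the 58 genes its log2-fold change was 1 or more in size, and only 2 of these 10 were among the called genes. In the same rat 12.6% of all genes reached that size. *Ifit3*, a tetratricopeptide antiviral protein, was at 0.99 in rat 8 and from -0.91 to 0.17 in the other rats, with a mean of -0.19 over 12 rats and -0.29 over 11 (adjusted p = 0.36 and 0.0187, limma). *Ifi44* was at 1.57 in rat 8 and from -0.48 to 0.11 in the others, with a mean of -0.05 over 12 rats and -0.19 over 11 (adjusted p = 0.872 and 0.036, limma). Among the genes called without this rat only, *Ifit3*, *Ifi44* and *Ifnar1* were lower and *Irf3* was higher, while *Ifngr2* was no longer called and the other 12 genes were called with and without it. *Ifit2* was at 1.47 in rat 8 and from -0.84 to 0.09 in the others, and without rat 8 its mean was -0.22 (adjusted p = 0.0557, limma).

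The channel levels show on which side rat 8 differed. For *Jak2* its syngeneic sample was at a normalized log2 intensity of 9.75, below the 10.19 to 12.28 of the other rats, and its allogeneic-labeled sample at 12.22, close to their median of 12.23. *Irf3* (12.20 against 13.20 to 13.68), *Ifi44* (7.76 against 9.26 to 9.87), *Ifit2* (7.44 against 8.26 to 9.61) and *Socs6* (6.97 against 7.35 to 8.56) were likewise lowest in the syngeneic sample of rat 8, whereas in its allogeneic-labeled sample they were at or above rank 6 of 12 from the lowest. For *Irf7* and *Stat5b* the syngeneic sample of rat 8 was the highest of the 12. In this rat the 3 keratinocyte genes on the array averaged 1.41 and the 13 macrophage and monocyte genes -0.67. Whether these bear on its interferon genes was not tested.

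**Figure D3:**
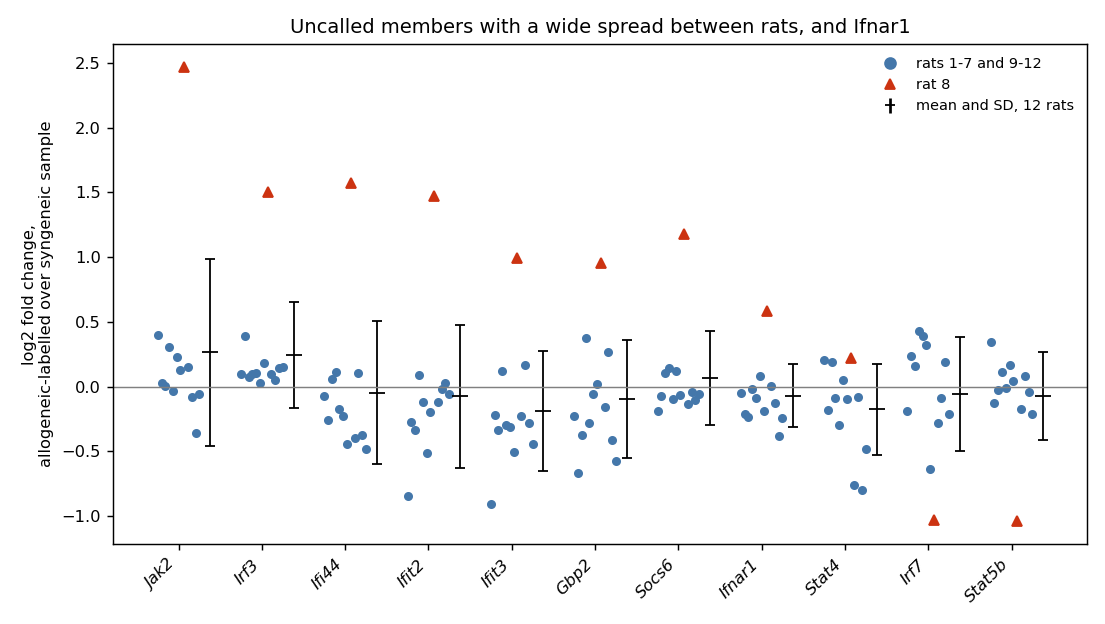
Log2-fold change (y axis, allogeneic-labeled over syngeneic sample) in each rat of 11 uncalled genes, namely *Ifnar1* and others with a wide spread, with the mean and SD over 12 rats as black bars. Rat 8 (red triangle) lies outside the range of the other 11 rats (circles) for every gene shown, by the least for *Stat4* (0.22 against 0.21).

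**Figure D4:**
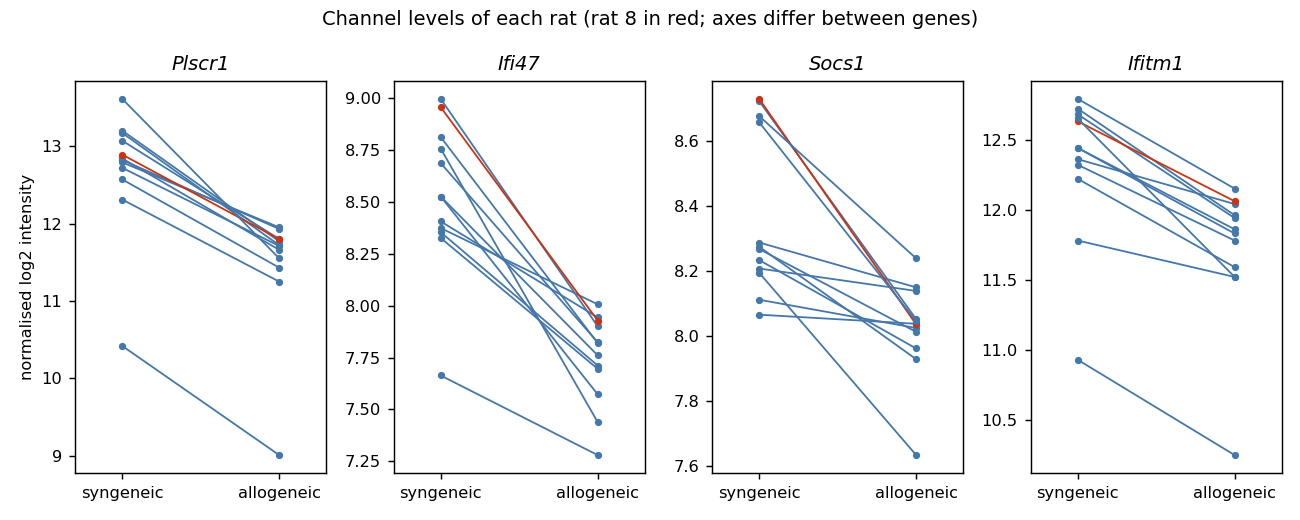
Normalized log2 intensity (y axis, with a separate scale for each gene) of the syngeneic and the allogeneic-labeled sample, with a line for each rat and rat 8 in red. The line falls in all 12 rats for *Plscr1*, *Ifi47*, *Socs1* and *Ifitm1*.

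Dye orientation mattered for the small values. In 21 of the 58 genes the mean had opposite signs in the dye orientations, among them *Jak1* (-0.29 and 0.34), *Stat6* (-0.21 and 0.19) and *Socs3* (-0.29 and 0.18), each with the Cy5-allogeneic mean first. None of the 13 called genes was among these 21. The call rests on the mean of both orientations, so that opposite signs by themselves work against a call.

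Other genes of the pathway were taken from lists. Over all genes on the array 7.6% were called lower and 8.66% higher, and without rat 8 11.4% and 12.7%. Of 25 measured genes that interferons are known to induce and that the naming rule did not reach, 8 were called lower and 1 higher, with a median of -0.09 (10 lower and 1 higher without rat 8). *Ubd*, a ubiquitin-like protein, was lower in all 12 rats at -1.43 ± 0.65 (SD, adjusted p = 0.000224, limma), and so was *Psmb8*, an immunoproteasome subunit, at -0.42 ± 0.25 (SD, adjusted p = 0.00127, limma). The gene called higher was the chemokine gene *Cxcl9*, at 0.335 ± 0.376 (SD, adjusted p = 0.0414, limma) and higher in 11 rats. *Cxcl10* was at 0.26 and not called (adjusted p = 0.291, limma). Of 34 further receptors and regulators of JAK-STAT signaling, 8 were called lower and 2 higher, with a median of 0.002 (11 lower and 3 higher without rat 8). Lower in all 12 rats were *Il2rb* (-0.63 ± 0.37 SD, adjusted p = 0.00116), *Csf2ra* (-0.43 ± 0.28 SD, adjusted p = 0.0028), the phosphatase gene *Ptpn6* (-0.41 ± 0.23 SD, adjusted p = 0.000876), *Il2ra* (-0.21 ± 0.20 SD, adjusted p = 0.0202) and *Il2rg* (-0.17 ± 0.13 SD, adjusted p = 0.00671), whereas *Ccnd1*, a cyclin induced by STAT factors, was higher in all 12 (0.46 ± 0.23 SD, adjusted p = 0.000464, limma).

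Marker lists of the cell types that an explant with added lymphocytes could hold were counted in the same way, beside 7.6% of all genes called lower and 8.66% higher. Of the 13 macrophage and monocyte genes on the array, 9 were called lower and none higher, with a median of -0.71 and a mean per rat between -1.55 and -0.33. All 13 had signal well above background, and *Fcgr3a*, *Trem2*, *Ctss*, *Aif1*, *Tyrobp* and *Itgam* were lower in all 12 rats, by means of -2.19 to -0.60. The 4 not called were *Mrc1* (-0.455), *Emr1* (-0.07), *Cd14* (0.01) and *Cd163* (0.18). Of 14 T cell genes 6 were called lower (median -0.29, mean per rat between -0.995 and 0.115), and of 9 NK cell genes 4 (median -0.09, mean per rat between -0.53 and -0.03), with *Cd8b*, *Gzmb*, *Gzma* and *Nkg7* lower in all 12 rats (means of -0.49, -0.69, -0.38 and -0.31). Of the NK receptor genes, *Klrb1a* was called (-0.115), whereas *Klrd1*, *Klrk1*, *Ncr1* and *Klrb1b*, between -0.09 and 0.03, were not. *Cd3d*, *Cd3e*, *Cd3g* and *Cd4*, between -0.40 and -0.05, were not called either. None of 7 B cell genes was called. Of 4 fibroblast genes 2 were called higher, as were 2 of 6 endothelial genes, with *Pdgfrb* (0.43) and *Cdh5* (0.33) higher in all 12 rats. Without rat 8 the fibroblast and endothelial counts were 4 and 1, and 10 macrophage and monocyte, 6 T cell, 5 NK cell and 0 B cell genes were called lower. Without this rat 11.4% of all genes were called lower and 12.7% higher. Of the 15 keratinocyte markers 3 were on the array, *Cdh1*, *Trp63* and *Dsc3*, and none was called.

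Across the 12 rats, 6 relations were computed. The log2-fold change of *Plscr1* was more negative in the rats in which the macrophage and monocyte genes were more negative (Pearson's r = 0.812, permutation p = 0.00538, adjusted p = 0.0323; Spearman's rho = 0.755, permutation p = 0.00622, adjusted p = 0.0373, two-sided). Without the 2 rats farthest from the median of the marker mean, r was 0.613, and without rat 8 it was 0.808. Both measures come from the same arrays, and the part of these cells in the change of *Plscr1* was not tested. For *Socs1* this relation did not pass the test (r = -0.207, permutation p = 0.53, adjusted p = 0.626; rho = -0.238, permutation p = 0.458, adjusted p = 0.842). *Socs1* and *Plscr1*, which were lower in the same 12 rats, gave a weaker relation that did not pass either (r = 0.183, permutation p = 0.594, adjusted p = 0.626; rho = 0.189, permutation p = 0.561, adjusted p = 0.842). The 3 relations with *Ifitm6*, whose signal was mostly not above background, had adjusted p-values of 0.126 to 0.626 for r.

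**Figure D5:**
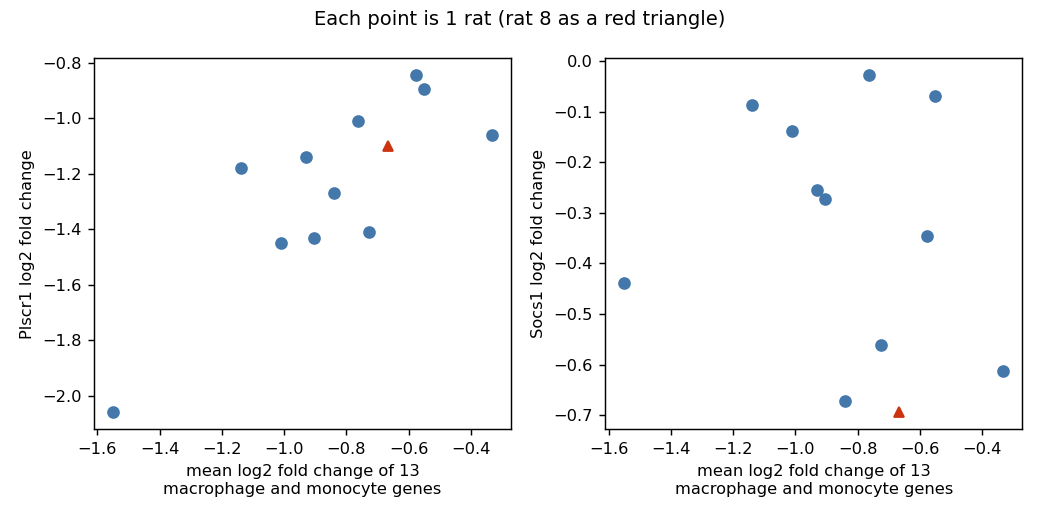
Mean log2-fold change per rat of 13 macrophage and monocyte genes (x axis) against that of *Plscr1* (left) and *Socs1* (right, y axes), with 1 point for each of 12 rats and rat 8 as a red triangle. *Plscr1* falls with the marker mean (r = 0.812), and for *Socs1* r is -0.207.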

How the data were processed

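RNA of 12 allogeneic and 12 syngeneic explants was measured on 24 two-color Agilent arrays in a paired dye-swap design. The authors deposited scanner output with a mean and a median background intensity per spot in Cy3 and Cy5, and a series table of log2 ratios that were already turned to allogeneic over syngeneic. The dye-normalization version in the file headers is 9.5.1.1, whereas the methods name an earlier version of the Feature Extraction software. Per the file headers the probes were placed on rat build rn3. The submitters' processing notes name limma, and the methods name loess normalization.

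In limma 3.58.1 (R 4.3.3) the normexp correction (offset 50) was followed by a loess fit for each array, leaving out control and outlier spots (178 to 258 spots an array). Spots of a probe, probes of a gene, and then both arrays of each rat, were averaged, and the mean over 12 rats was tested against 0 with limma. Intensities per channel were scaled between arrays by quantiles of the average signal (Aquantile). The test was checked on simulated data. The sources do not say beyond the animals how explant pairs were made up, so that p-values measure the spread between these pairs. Named are all members by role, with full values for the called ones and *Socs1*, *Ifitm6* and *Plscr1*, and called genes of other lists with 1 sign in all 12 rats. Some further list genes are named because they went the other way or were not called. The members and lists were chosen with earlier results of these data known. The number of arrays limits the precision. Correlations used 100000 permutations. Alternatives were another background correction, normalization, filter, test, probe choice, dye orientation, slide block, the authors' table, and leaving out each rat. The exclusion of rats 8 and 10 together was chosen after seeing the data. The values of 1 member are not reported here.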

Additional observations from a re-analysis of the deposited data

How the results depend on the processing

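Of the 13 called genes, *Plscr1*, *Ifi47*, *Ifitm1*, *Ifi30*, *Isg20l1*, *Socs1*, *Cish*, *Ifitm3* and *Ifitm7* kept their sign and call under 27 of 28 alternatives, and the exception was the turned sign of rat 5 (adjusted p = 0.0825 to 0.105), which left 0 of the 58 genes and 0 of all genes called in limma (14 of the 58 and 1515 of all at an unadjusted p under 0.05). As labeled, the log2-fold changes of rat 5 correlated with the mean of the other rats at r = 0.809 over all genes. The mean of *Plscr1* ranged from -1.28 to -0.995 (adjusted p at most 0.0825), and no called gene reversed its sign under any of the 28. *Ifngr2* lost its call under 17 alternatives, *Isg20l2* under 4, *Socs4* under 3 and *Jak3* under 2. The count of 13 called genes became 24 with the Cy5-allogeneic arrays alone (18 lower, 6 higher) and 23 with the Cy3-allogeneic arrays alone (11 lower, 12 higher), and 21 without rats 8 and 10 (13 lower, 8 higher), while the genes called over the whole array went from 1181 to 2194, 2086 and 1779, and the cause was not tested. The count of 3 called higher became 6 in the exact signed-rank test and 7 with the rat as a replicate block over 24 arrays, where 18 of the 58 genes (11 lower) and 1411 of all genes were called, against 1353 of all genes in the signed-rank test. Leaving out 1 rat gave 12 to 17 called genes, 9 to 12 lower and 3 to 5 higher, with 5 higher without rat 7 and without rat 8. Signal near background limits *Ifitm6*, *Ifng*, *Ifnk*, *Ifna1*, *Mx1*, *Mx2*, 1 probe of *Gbp5* and 2 probes of *Ifit1*.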
